A study of Nicotiana benthamiana with 28 samples.

Results

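The genes described here are 150 genes of Nicotiana benthamiana, a tobacco relative used as a model of plant immunity, that had low transcript levels in mock-treated wild-type seedlings and high levels 3 h after the protein XEG1. They were taken from the 59814 genes in the files, of which 24634 had a level from 1 to under 20 TPM (a transcript level scaled to gene length and to the same total in every library) in both wild-type mock libraries. These were ranked by the log2 ratio of the lower wild-type XEG1 library to the higher wild-type mock library, after adding 1 TPM to each, and the 150 highest were kept. The genes were thus chosen by their wild-type TPM in both treatments, and wild-type values below are a description with no test.

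RNA of whole 12-day-old seedlings was sequenced in 28 libraries, 2 for each of 14 groups: 7 genotypes, each treated with XEG1 protein or mock. Sample titles name the control EV while the treatment field says mock, and both were taken as the same control. There were 4 construct lines, made in the rxeg1 knockout with an RXEG1syn transgene that the promoter of RXEG1 drives. The transgene was RXEG1synΔCT in ΔCT line 1 and ΔCT line 2. The other 2 lines carried RXEG1synΔ90-95/Q786AK791AΔCT and RXEG1synΔ90-95/Δ786-792ΔCT and are called the Δ90-95/Q786AK791A line and the Δ90-95/Δ786-792 line. The remaining genotypes were a sobir1/sobir1-like knockout, the rxeg1 knockout and the wild type. Every construct carried ΔCT, so the series holds no line with RXEG1syn alone, and the altered receptors with a change at residues 90 to 95 were each represented by 1 line. Replicates are numbered in the labels, with no word on whether they were separate plants or batches. The p-values therefore rest on the spread between libraries, which may be technical.

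Plants detect microbes at the cell surface through receptors that bind microbial molecules and switch on defence genes within hours. XEG1 is a cell-wall-degrading enzyme released by the soybean pathogen Phytophthora sojae, and RXEG1 is the leucine-rich repeat receptor-like protein of N. benthamiana that binds it. Receptor-like proteins lack a kinase of their own, and SOBIR1 is the receptor kinase that many of them use as a partner. The identifiers in the files are not paired with gene names, so functions of the 150 genes, the level of RXEG1 and SOBIR1 in the knockouts, the level of the constructs and seedling tissue markers were not examined here. For the same reason most genes are called by their rank in the list of 150.

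In wild type the 150 genes had a median of 161 and 171 TPM in the XEG1 libraries and of 4.92 and 4.22 TPM in the mock libraries. Together they held 3.92% and 4.07% of all TPM in the XEG1 libraries, against 0.0951% and 0.0823% in the mock libraries. The lowest value of any of the genes in a wild-type XEG1 library was 30.6 TPM. The log2 ratio used for ranking was 8.79 for the first gene, 4.29 at the median and 3.62 for the last, and its median over all 24634 genes in the range was -0.65. It exceeded 5 for 39 of the genes. After XEG1, 105 of the 150 genes had a wild-type mean above 100 TPM and 15 had one above 500 TPM. Just inside the rule, the gene at rank 150 had 30.6 and 39.2 TPM in the XEG1 libraries, lower value first, and 1.26 and 1.56 TPM in the mock libraries. Just outside it, the gene at rank 151 had 49.0 and 64.9 TPM in the XEG1 libraries and 2.50 and 3.07 TPM in the mock libraries, with a log2 ratio of 3.62 as well.

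The gene at rank 1 had 1068 and 1072 TPM in wild-type XEG1 libraries and 1.20 and 1.41 TPM in wild-type mock libraries. In no library of another genotype did it exceed 4.10 TPM, the level of XEG1 replicate 2 of sobir1/sobir1-like. The gene at rank 2 had 833 and 868 TPM in wild-type XEG1 libraries and 2.71 and 3.22 TPM in wild-type mock libraries. Outside wild type the gene at rank 2 reached higher levels than the first. In the Δ90-95/Q786AK791A line it had 19.5 and 12.5 TPM after XEG1 and 1.99 and 0.886 TPM after mock, and in ΔCT line 2 it had 9.14 and 8.23 TPM after XEG1 and 0.708 and 0.655 TPM after mock. The XEG1 and mock libraries of both lines did not overlap at this gene.

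None of the 150 genes reached its wild-type level in another genotype. For each of them, the highest of the 24 libraries of the other genotypes lay below the lower wild-type XEG1 library, and the highest value of any of the genes in a XEG1 library outside wild type was 58.9 TPM. Levels were close to the bottom of the scale in these genotypes: 25 of the 4200 values were listed at 0, all of them outside wild type.

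**Figure D1:**
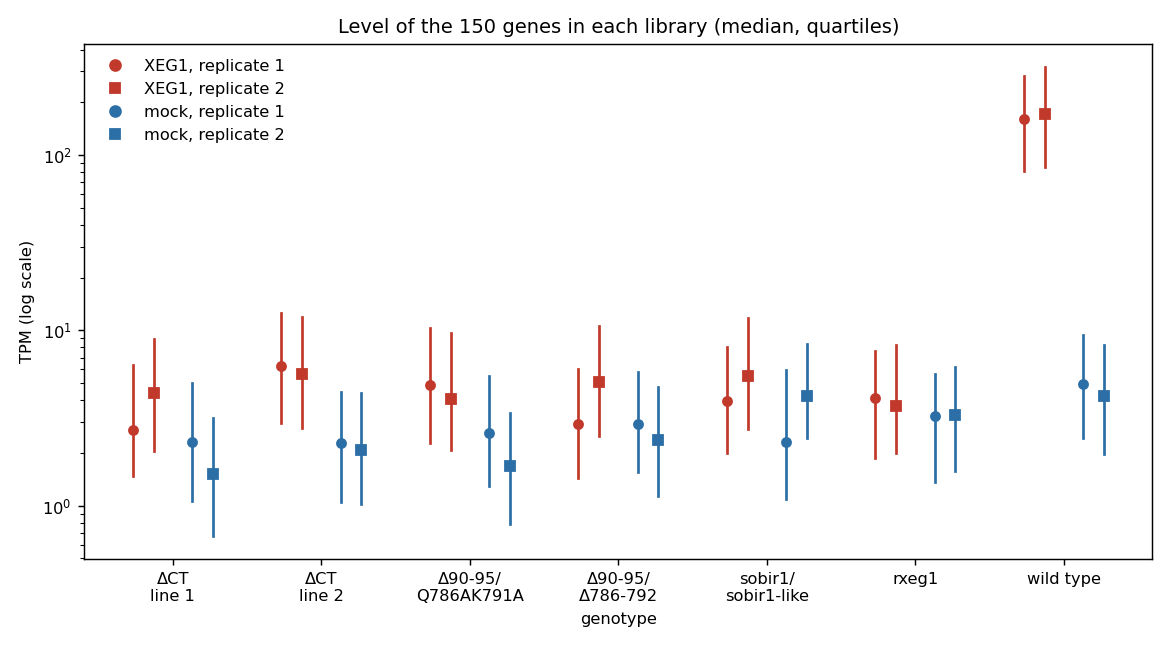
Level of the 150 genes in each of the 28 libraries, on a log TPM axis, by genotype. Points are the median over the 150 genes, bars run between the quartiles over genes, red is XEG1, blue is mock, circles are replicate 1 and squares replicate 2. Wild-type XEG1 libraries sit at 161 and 171 TPM, and every other library has a median between 1.51 and 6.30 TPM.

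Some libraries stood apart in the median over the 150 genes. ΔCT line 1 had 2.71 and 4.40 TPM after XEG1 and 2.30 and 1.51 TPM after mock, so its XEG1 replicate 1 lay near its mock replicate 1. The Δ90-95/Δ786-792 line had 2.93 and 5.11 TPM after XEG1 and 2.94 and 2.37 TPM after mock, so its XEG1 replicate 1 was level with its mock replicate 1. In sobir1/sobir1-like the values were 3.97 and 5.52 TPM after XEG1 and 2.31 and 4.23 TPM after mock, and mock replicate 2 was above XEG1 replicate 1. In the other genotypes, as in ΔCT line 1, both XEG1 libraries exceeded both mock libraries. ΔCT line 2 had 6.30 and 5.63 TPM after XEG1 and 2.27 and 2.07 TPM after mock. The Δ90-95/Q786AK791A line had 4.88 and 4.07 TPM after XEG1 and 2.60 and 1.69 TPM after mock. In rxeg1 the libraries were closest together, with 4.10 and 3.68 TPM after XEG1 and 3.23 and 3.31 TPM after mock. Whole seedlings were sequenced, so fewer responding cells and less RNA per cell cannot be told apart. TPM do not retain read numbers, and library depth is unknown.

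The next question was whether any rise after XEG1 remained in the genotypes without an unaltered RXEG1 or without SOBIR1. Changes are differences of mean log2(TPM + 1), a scale that understates the change of low genes. The median change of the 150 genes was 0.47 for ΔCT line 1, 0.88 for ΔCT line 2, 0.70 for the Δ90-95/Q786AK791A line, 0.34 for the Δ90-95/Δ786-792 line, 0.40 for sobir1/sobir1-like and 0.20 for rxeg1. Over all 36612 tested genes, those with a mean of at least 1 TPM in the 24 libraries outside wild type, the medians were 0.06, 0.03, 0.01, 0.06, 0.00 and 0.02 in the same order of genotypes. A change above 0 was seen for 139, 143, 138, 131, 135 and 121 of the 150 genes in that order, where 66.1%, 56.4%, 53.4%, 62.8%, 51% and 54.7% of all tested genes had one. The median of ΔCT line 2 stayed between 0.87 and 0.97 with 1 of its libraries left out. That of ΔCT line 1 ran from 0.32 to 0.71, that of sobir1/sobir1-like from 0.13 to 0.56 and that of the Δ90-95/Δ786-792 line from 0.12 to 0.59. The lowest values came without mock replicate 2 in ΔCT line 1, without mock replicate 1 in sobir1/sobir1-like and without XEG1 replicate 2 in the Δ90-95/Δ786-792 line. In sobir1/sobir1-like the median was 0.17 without XEG1 replicate 2. In ΔCT line 1 it was 0.71 without mock replicate 1, and in the Δ90-95/Δ786-792 line 0.59 without XEG1 replicate 1. In rxeg1 the median was 0.30 without mock replicate 2, against 0.21 with all libraries, both over the tested genes.

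**Figure D2:**
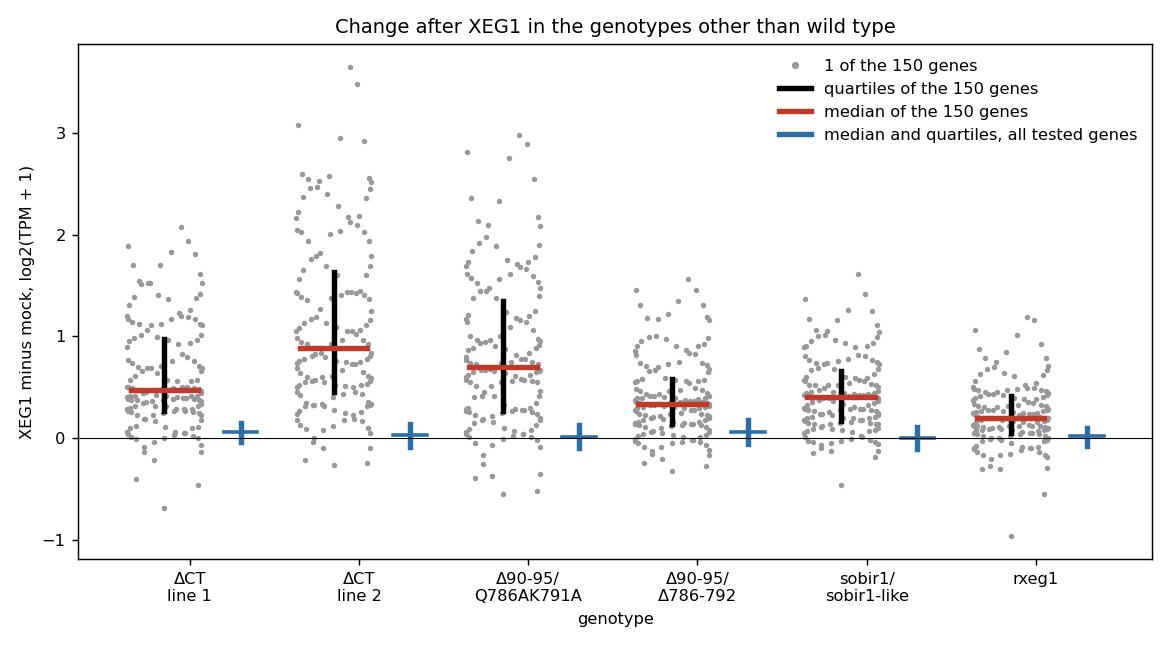
Change after XEG1, as XEG1 minus mock in log2(TPM + 1), for the 6 genotypes other than wild type. Grey points are the 150 genes, the black bar runs between their quartiles and the red line is their median. Blue marks the median and quartiles of all tested genes. The red lines lie between 0.20 in rxeg1 and 0.88 in ΔCT line 2, and the blue lines between 0.00 and 0.06.

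Counted gene by gene, both XEG1 libraries exceeded both mock libraries for 99 of the 150 genes in ΔCT line 1, where 19.2% of all tested genes did so. The count was 127 in ΔCT line 2, against 21.2% of all tested genes, and 106 in the Δ90-95/Q786AK791A line, against 13.2%. It was 49 in the Δ90-95/Δ786-792 line, against 10.4%, 53 in sobir1/sobir1-like, against 16.8%, and 52 in rxeg1, against 7.55%. In all 6 genotypes the share of the 150 genes was above that of all tested genes. The reverse order, both XEG1 libraries below both mock libraries, held for at most 4 of the 150 genes in any genotype. Over all tested genes it held for 5.32% to 14.9%, depending on the genotype. Among the genes in the same wild-type mock range that could be tested, 7.37% to 20.4% had XEG1 libraries above mock libraries without overlap, depending on the genotype.

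For most of the 150 genes the XEG1 libraries exceeded the mock libraries without overlap in several genotypes. There were 9 genes that did so in all 6 genotypes other than wild type, which is 6% of the 150 against 0.219% of all tested genes. At the other end, 7 of the 150 genes did so in no genotype, 4.67% against 46.3% of all tested genes. The same order without overlap in all 4 construct lines was seen for 29 of the 150 genes and for 0.784% of all tested genes. In both knockouts it was seen for 25 of the 150 genes and for 2.46% of all tested genes. The combination of all 4 construct lines and neither knockout held for 12 of the 150 genes, against 0.295% of all tested genes.

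**Figure D3:**
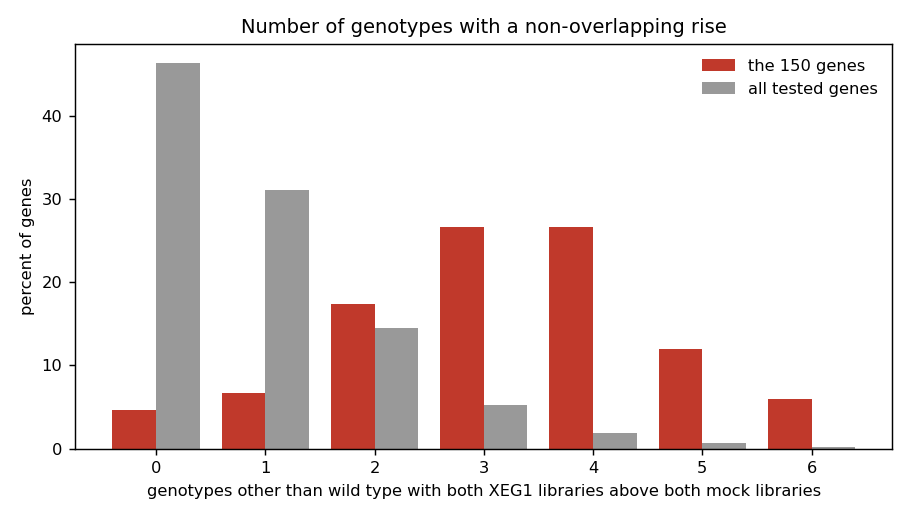
Percent of genes, on the y axis, by the number of genotypes other than wild type in which both XEG1 libraries exceeded both mock libraries. Red bars are the 150 genes and grey bars all tested genes. The red bars are highest at 3 and 4 genotypes, with 26.7% of the 150 genes each, and the grey bars are highest at 0, with 46.3%.

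Per genotype, few single genes passed a test. Limma's moderated test was fitted to the 24 libraries outside wild type, which played no part in choosing the genes, and p-values were adjusted over all 36612 tested genes. Of the 150 genes 140 were tested, and the other 10, with a mean under 1 TPM in these libraries, had changes between -0.55 and 1.43 over the 6 genotypes. Only 128 of the 150 genes reached a mean of 1 TPM in the mock libraries among these. Counts of the 140 genes therefore include genes that were tested only through their XEG1 libraries. In ΔCT line 2, 3 of the 140 genes were called higher and none lower (limma, adjusted p under 0.05), where 0.0109% of all tested genes were called higher. At an unadjusted p under 0.05, 88 of the 140 genes were higher in this line, against 2.77% of all tested genes. In each of the other 5 genotypes limma called 0 genes, and 0% of all tested genes were called higher. At an unadjusted p under 0.05, the number of higher genes among the 140 was 44 for ΔCT line 1, against 1.2% of all tested genes, and 78 for the Δ90-95/Q786AK791A line, against 2.2%. It was 17 for the Δ90-95/Δ786-792 line, against 1.14%, 13 for sobir1/sobir1-like, against 0.896%, and 6 for rxeg1, against 0.412%. None was lower at that level in any of the 6 genotypes, where 0.128% to 1.02% of all tested genes were. Counts of 0 of 140 are near these shares.

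The calls in ΔCT line 2 changed with the libraries in the fit. Without any 1 of its 4 libraries 0 genes were called. With the wild-type libraries in the fit 10 were called, against 0.0625% of all genes then tested. In that fit all 150 genes passed the filter, 10 of them only through the wild-type libraries that chose them, and none of those 10 was among the genes called. When only the groups of this line were fitted, 59 of 140 genes were called, against 0.846% of all genes then tested. With a pseudocount of 0.1 in place of 1, 1 gene was called, against 0.00273%.

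The genes called in ΔCT line 2 with the largest changes were Niben101Scf03861g00008 and Niben101Scf03861g00009, which by their identifiers are consecutive genes on 1 scaffold. Niben101Scf03861g00008 had 16.4 and 18.1 TPM after XEG1 and 3.85 and 2.61 TPM after mock in ΔCT line 2, a log2 change of 2.12 (SE 0.28, limma adjusted p 0.0370). Niben101Scf03861g00009 had 16.3 and 17.3 TPM after XEG1 and 3.46 and 3.16 TPM after mock, a log2 change of 2.05 (SE 0.29, limma adjusted p 0.0464). For both genes the XEG1 libraries exceeded the mock libraries in all 6 genotypes. The remaining called gene, at rank 48, was close to the floor, with 2.66 and 3.40 TPM after XEG1 and 0.294 TPM and a listed 0 after mock. Its mean over the mock libraries outside wild type was under 1 TPM, so it was tested only through its XEG1 libraries. With a filter on the mock libraries alone 2 of 128 genes were called in ΔCT line 2, against 0.00548% of all genes then tested.

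The first gene of this pair also had the largest rise of the 140 tested genes in each knockout. Niben101Scf03861g00008 had 19.1 and 18.0 TPM after XEG1 and 5.62 and 5.17 TPM after mock in sobir1/sobir1-like. In rxeg1 it had 15.7 and 12.5 TPM after XEG1 and 5.32 and 5.84 TPM after mock. Its XEG1 libraries thus lay above its mock libraries in both knockouts. Averaged over both knockouts its log2 change was 1.40 (SE 0.20), the largest of the 140 tested genes and not called (limma adjusted p 0.0862). In wild type it had 227 and 170 TPM after XEG1 and 12.4 and 10.1 TPM after mock. The sources used here do not say how reads common to near-identical copies were counted, so the values of these neighbours are uncertain as 2 separate measurements.

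**Figure D4:**
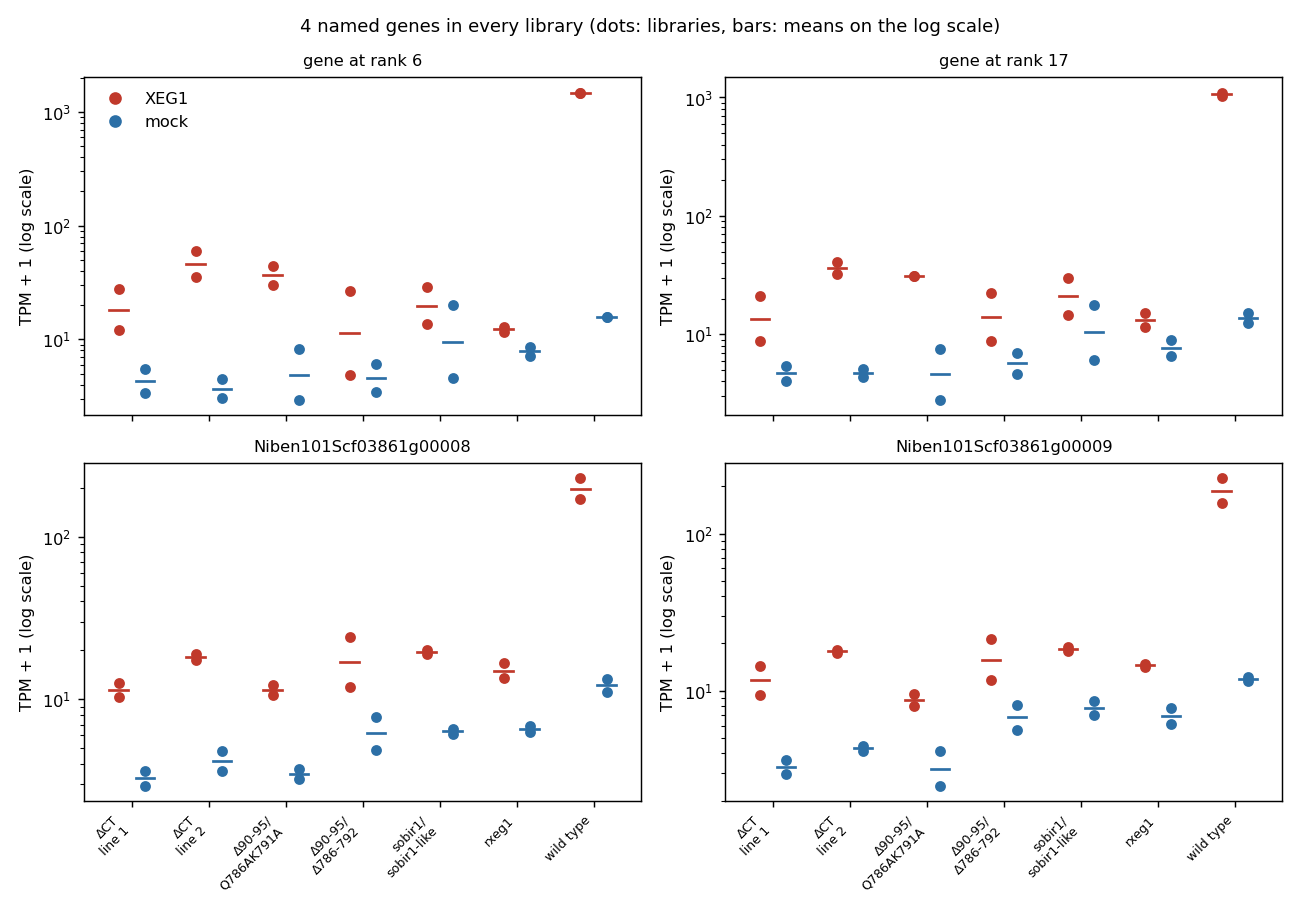
TPM + 1 on a log axis in every library for 4 genes, by genotype, with XEG1 in red and mock in blue. Dots are libraries and bars are means on the log scale of 2 libraries. The 2 lower panels show Niben101Scf03861g00008 and Niben101Scf03861g00009, whose XEG1 dots lie above their mock dots in all 7 genotypes. The upper panels show the genes at ranks 6 and 17, those with the largest mean change over the construct lines, whose XEG1 and mock dots overlap in the Δ90-95/Δ786-792 line for the gene at rank 6 and in sobir1/sobir1-like for both.

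The mean change over the 4 construct lines sets 8 XEG1 libraries against 8 mock libraries. Of the 140 tested genes 50 were higher after XEG1 and none lower (limma, adjusted p under 0.05), where 0.751% of all tested genes were called higher. With no filter on low values all 150 genes were tested, and 43 were called, against 0.499% of the 49906 genes then tested. With a filter on the mock libraries alone, so that no gene passed through its XEG1 level, 42 of 128 were called, against 0.682% of all genes then tested. The median change was 0.56 over the 150 genes, against 0.04 over all tested genes and 0.03 over the tested genes in the same wild-type mock range. The 50 called genes had changes from 0.42 to 2.48, with a median of 1.34, and 49 of them had a change above 0 in each of the 4 lines. They were spread over the ranking, from rank 2 to rank 149, with 32 of them among the first 75.

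The count of 50 moved with single libraries. Shares of all tested genes called in those fits are not given here, so the counts show only that 50 is unsteady. It was 28 without ΔCT line 2 XEG1 replicate 1, 31 without ΔCT line 2 mock replicate 2, 28 without ΔCT line 1 mock replicate 2 and 27 without ΔCT line 1 XEG1 replicate 2. Without mock replicate 2 of the Δ90-95/Q786AK791A line it was 27, and without XEG1 replicate 2 of the Δ90-95/Δ786-792 line 28. Leaving out any other of the 16 libraries gave 34 to 59. Of the 50 genes, 23 were called under every 1 of 24 other settings of the fit.

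The largest mean change over the construct lines was that of the gene at rank 6, at 2.48 (SE 0.38, limma adjusted p 0.00539). It had 11.1 and 26.6 TPM after XEG1 and 4.50 and 2.39 TPM after mock in ΔCT line 1, and 58.9 and 34.6 TPM after XEG1 and 2.02 and 3.51 TPM after mock in ΔCT line 2. Its level in the Δ90-95/Q786AK791A line was 43.5 and 29.0 TPM after XEG1 and 7.19 and 1.93 TPM after mock, and in the Δ90-95/Δ786-792 line 3.83 and 25.6 TPM after XEG1 and 5.12 and 2.42 TPM after mock. The groups were apart in the first 3 of these lines and overlapped in the last, where XEG1 replicate 1 lay between the mock libraries. In rxeg1 it had 10.6 and 12.0 TPM after XEG1 and 6.16 and 7.64 TPM after mock, and in wild type 1465 and 1484 TPM after XEG1 and 14.9 and 14.7 TPM after mock.

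Next was the gene at rank 17, with a mean change of 2.13 over the construct lines (SE 0.28, limma adjusted p 0.00279). Its XEG1 libraries exceeded its mock libraries in all 4 lines. The separation was widest in ΔCT line 2, with 39.9 and 31.2 TPM after XEG1 and 3.36 and 4.06 TPM after mock, and in the Δ90-95/Q786AK791A line, with 29.8 and 30.3 TPM after XEG1 and 6.57 and 1.79 TPM after mock. In sobir1/sobir1-like its groups overlapped, with 13.6 and 29.0 TPM after XEG1 and 5.11 and 16.6 TPM after mock.

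Over both knockouts, limma called 0 of the 140 genes, 0% of all tested genes were called higher, and 24 of the 140 were higher at an unadjusted p under 0.05, against 1.23% of all tested genes. The median change of the 150 genes was 0.28 there, against 0.01 over all tested genes. Over the tested genes of the 150 it was 0.17 without sobir1/sobir1-like mock replicate 1 and 0.18 without its XEG1 replicate 2. The median SE over the tested genes of the 150 was 0.17 for the mean of the construct lines and 0.24 for the mean of the knockouts. The difference between the mean change of the construct lines and that of the knockouts was therefore tested itself. Its median was 0.37 over the 150 genes, against 0.03 over all tested genes, and it was above 0 for 128 of the 150 genes, against 57.9% of all tested genes. Limma called 0 of the 140 genes for this difference, 0% of all tested genes were called higher, and 23 of the 140 genes were higher at an unadjusted p under 0.05, against 0.795% of all tested genes. With a median SE of 0.29, a larger rise in the construct lines was not shown for any single gene.

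**Figure D5:**
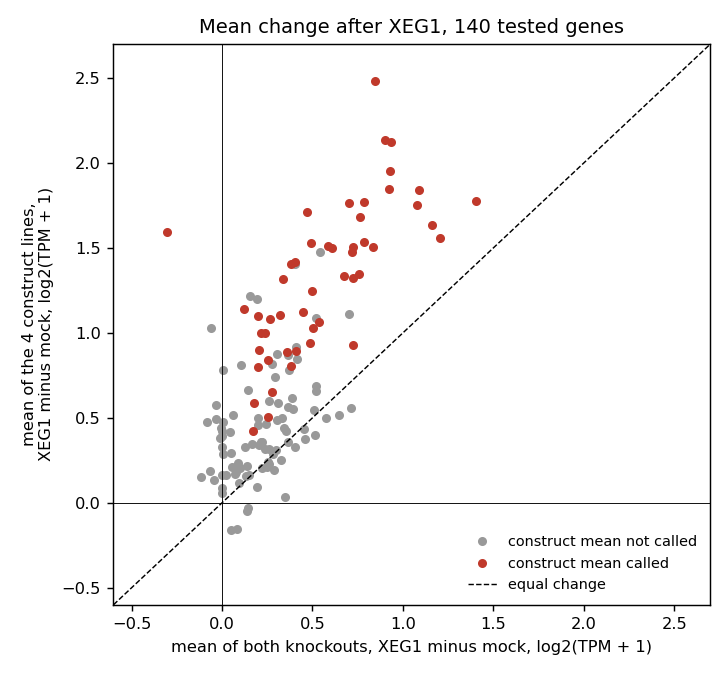
Mean change after XEG1 in log2(TPM + 1) of the 140 tested genes, with the mean of the 4 construct lines on the y axis and the mean of both knockouts on the x axis. Red points were called for the construct mean, grey points were not, and the dashed line marks equal change. There are 120 points above the dashed line, and the highest point, at 2.48, is the gene at rank 6.

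The gene with the largest difference was that at rank 25, at 1.90 (SE 0.51, limma adjusted p 1.00, unadjusted p 0.00184). In the Δ90-95/Q786AK791A line it had 52.3 and 29.0 TPM after XEG1 and 3.64 and 4.52 TPM after mock, and in ΔCT line 2 it had 11.7 and 16.2 TPM after XEG1 and 0.838 and 2.40 TPM after mock. Treatments did not overlap in these lines. They overlapped in ΔCT line 1, with 4.76 and 4.38 TPM after XEG1 and 5.53 and 1.77 TPM after mock, and in the Δ90-95/Δ786-792 line, with 0.883 and 5.83 TPM after XEG1 and 3.31 and 0.640 TPM after mock. They also overlapped in both knockouts. The gene had 5.49 and 7.88 TPM after XEG1 and 5.45 and 8.69 TPM after mock in sobir1/sobir1-like, and 2.89 and 0.940 TPM after XEG1 and 3.97 and 2.26 TPM after mock in rxeg1.

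Set against the response of rxeg1, their parent genotype, the construct lines differed in the same direction with unequal size. The median difference in response over the 150 genes was 0.34 for ΔCT line 1, 0.72 for ΔCT line 2, 0.54 for the Δ90-95/Q786AK791A line and, the least, 0.16 for the Δ90-95/Δ786-792 line. They compare with medians between -0.0023 and 0.042 over all tested genes. These differences share the 4 rxeg1 libraries. Over the tested genes of the 150, that of ΔCT line 1 was 0.35, and it was 0.13 without its mock replicate 2 and 0.18 without its XEG1 replicate 2. That of the Δ90-95/Δ786-792 line was 0.16 and moved with most of its libraries: it was 0.45 without its XEG1 replicate 1, 0.28 without its mock replicate 1, 0.04 without its mock replicate 2 and 0.09 without rxeg1 mock replicate 2. It turned to -0.11 without XEG1 replicate 2 of this line, so its direction rested on that library. Limma called 0 of the 140 genes in each of the 4 lines, with 0% of all tested genes called higher. At an unadjusted p under 0.05, 1, 43, 21 and 1 of the 140 genes were higher in the same order of lines, against 0.32%, 1.05%, 0.683% and 0.513% of all tested genes, and the median SE was 0.48. Counts of 1 of 140 are near these shares.

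The lines with a change at residues 90 to 95 were also compared with the ΔCT lines. Their mean change after XEG1 differed from theirs by a median of -0.20 over the 150 genes, against -0.01 over all tested genes, and it was higher for 38 of the 150, where 47.3% of all tested genes were higher. Limma called 0 of the 140 genes in either direction, 0% of all tested genes were called lower, and at an unadjusted p under 0.05 5 of the 140 were lower, against 0.361% of all tested genes, and 1 was higher, against 0.24%. Without single libraries of the 4 lines the median over the tested genes ran from -0.29 to -0.07. It was -0.07 without XEG1 replicate 1 of the Δ90-95/Δ786-792 line, -0.11 without mock replicate 1 of the Δ90-95/Q786AK791A line, -0.08 without ΔCT line 1 mock replicate 2 and -0.12 without ΔCT line 1 XEG1 replicate 2. The lines within each pair differed as well, with medians of 0.47 in ΔCT line 1 and 0.88 in ΔCT line 2.

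Across the 150 genes, the genes that changed most in 1 construct line tended to do so in the other genotypes outside wild type. Spearman's rho between changes was 0.80 for ΔCT line 2 and the Δ90-95/Q786AK791A line and 0.78 for the ΔCT lines, the highest of the 15 pairs of these genotypes. It ran from 0.53 to 0.80 over the 6 pairs of construct lines and from 0.45 to 0.60 over the 8 pairs of a construct line and a knockout, so these ranges overlapped. Between sobir1/sobir1-like and rxeg1 it was 0.46. Each pair rests on 150 genes that are not independent, uses separate libraries and shares the log2(TPM + 1) scale, on which genes of higher level show larger changes. The median change in ΔCT line 2 was 0.61 for the 29 genes with a wild-type mock mean under 2 TPM and 1.17 for the 30 genes with one of 10 TPM or more.

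In TPM, the residual differences were small beside wild type. The TPM added by XEG1, summed over the 150 genes, came to 0.864% of the amount added in wild type for ΔCT line 1, 2.21% for ΔCT line 2, 1.70% for the Δ90-95/Q786AK791A line, 0.732% for the Δ90-95/Δ786-792 line, 0.861% for sobir1/sobir1-like and 0.401% for rxeg1. The share was not the same for every gene. In ΔCT line 2 it ran from 0.472% at the 10th percentile of the genes to 4.75% at the 90th, with a highest value of 15.8% for the gene at rank 101. In rxeg1 and in sobir1/sobir1-like the highest value was that of Niben101Scf03861g00008, at 4.57% and 7.03%.

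The starting level without XEG1 differed from that of rxeg1, which is not a separate result. The changes after XEG1 were taken from the same mock libraries, so a low mock library lowers the starting level and raises the change. In mock libraries, the median difference from rxeg1 over the 150 genes was -0.38 for ΔCT line 1, -0.31 for ΔCT line 2, -0.24 for the Δ90-95/Q786AK791A line, -0.09 for the Δ90-95/Δ786-792 line and 0.11 for sobir1/sobir1-like. Over all tested genes these medians lay between -0.038 and 0.091. Both mock libraries lay below both rxeg1 mock libraries for 68 of the 150 genes in ΔCT line 1, against 17.5% of all tested genes, and for 72 in ΔCT line 2, against 15.7%. The counts were 60 in the Δ90-95/Q786AK791A line, against 21.6%, 29 in the Δ90-95/Δ786-792 line, against 6.13%, and 11 in sobir1/sobir1-like, against 10.8%. Limma called none of the 140 genes lower in any of these comparisons, where it called 0.0219%, 0%, 0.62%, 0% and 0.00273% of all tested genes lower in that order of genotypes. At an unadjusted p under 0.05, 24, 8, 19, 0 and 3 of the 140 genes were lower, where 7.96%, 3.78%, 9.19%, 0.494% and 0.879% of all tested genes were. In sobir1/sobir1-like, both mock libraries lay above both rxeg1 mock libraries for 25 of the 150 genes, against 9.82% of all tested genes. In ΔCT line 1 the median over the tested genes was -0.18 without its mock replicate 2, against -0.41. It was -0.62 without its mock replicate 1. In the Δ90-95/Q786AK791A line the median was -0.10 without mock replicate 2 and -0.46 without mock replicate 1, against -0.26. For sobir1/sobir1-like the median was 0.32 without its mock replicate 1, 0.20 and 0.02 without rxeg1 mock replicates 2 and 1, and it turned to -0.18 without its mock replicate 2. The Δ90-95/Δ786-792 line had a median of -0.02 without its mock replicate 2, -0.18 without its mock replicate 1 and, over the same comparison, -0.05 without rxeg1 mock replicate 2, against -0.12. In ΔCT line 2 it was -0.22 without mock replicate 2, against -0.36.

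The largest of these mock differences was at the gene of rank 76, with 1.60 and 1.23 TPM in ΔCT line 1 mock libraries and 7.44 and 7.95 TPM in rxeg1 mock libraries, a log2 difference of -1.85 (SE 0.66, limma adjusted p 0.207). The groups were far apart at this gene and it was not called.

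The level after XEG1 was also set beside that of rxeg1 after XEG1, a comparison added after the values were seen and made without a test. Both XEG1 libraries of ΔCT line 2 lay above both XEG1 libraries of rxeg1 for 94 of the 150 genes, against 20.9% of all tested genes, and below for 6, against 13.4%. In ΔCT line 1 they lay above for 16, against 25.5%, and below for 37, against 18.4%. For the Δ90-95/Q786AK791A line the counts were 51 above, against 12.4%, and 17 below, against 18.4%, and for the Δ90-95/Δ786-792 line 23 above, against 12.3%, and 10 below, against 8.59%. For sobir1/sobir1-like they were 62 above, against 11%, and 7 below, against 10.5%. ΔCT line 1 thus combined a positive change after XEG1 with a level after XEG1 that did not exceed that of rxeg1, with a median difference of -0.03. In ΔCT line 2 the level after XEG1 was higher than in rxeg1 by a median of 0.47.

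Against wild type the mock level was lower in the other genotypes as well. The median difference from wild-type mock was -0.75 for ΔCT line 1, -0.62 for ΔCT line 2, -0.62 for the Δ90-95/Q786AK791A line, -0.44 for the Δ90-95/Δ786-792 line, -0.27 for sobir1/sobir1-like and -0.38 for rxeg1. Over the 24634 genes in the same wild-type range these medians lay between 0.01 and 0.18. In rxeg1, 87 of the 150 genes had both mock libraries below both wild-type mock libraries, against 12.1% of the genes in the range, and 5 had both above, against 11.0%. The rule set the wild-type mock range and favoured low wild-type mock values within it, so these values are a description with no test. The 6 differences share the wild-type mock libraries.

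By their identifiers the 150 genes lay on 140 scaffolds or contigs of the assembly named in them. There were 9 scaffolds with more than 1 of the genes, holding 19 genes in all and at most 3 on 1 scaffold. Consecutive gene numbers occurred in 3 pairs. Besides the pair on scaffold Niben101Scf03861 these were the genes at ranks 13 and 14 and those at ranks 25 and 60. The neighbour at rank 60 had 52.7 and 28.3 TPM after XEG1 and 11.9 and 9.35 TPM after mock in the Δ90-95/Q786AK791A line, beside 52.3 and 29.0 TPM after XEG1 for the gene at rank 25. After XEG1 in wild type the gene at rank 60 had 206 and 407 TPM and the gene at rank 25 had 174 and 408 TPM. In the XEG1 libraries of both genotypes the replicates of these neighbours stood in the same order. In the mock libraries of the Δ90-95/Q786AK791A line they stood in opposite order. Reads common to both could make these values uncertain as separate measurements too.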

How the data were processed

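Transcript levels of 28 seedling libraries were used, 2 in each of 14 groups. The deposited files hold 1 TPM list for each library, and the submitters' processing notes name HISAT2 2.0.4, a spliced aligner. Genome build, annotation and the tool behind the TPM were not given in the sources used here. A combined table was not used here. Each list has a total of 1e+06 TPM, so a gene's TPM falls when others rise. The 150 genes and all comparisons were chosen with earlier results of these data known.

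The planned test was limma's moderated test with trend and robust shrinkage on log2(TPM + 1), in 1 fit of 12 group means (12 residual degrees of freedom) to the 24 libraries outside wild type, for the 36612 genes whose mean there reached 1 TPM. In each of 19 contrasts a gene was called at a Benjamini-Hochberg adjusted p under 0.05. Wild type stayed out because its libraries chose the genes. The genes named were ranks 1, 2 and 150, and per contrast up to 2 called genes in each direction with libraries that did not overlap, or for means the same sign in every genotype. Where none was called the gene with the largest change was taken. A selection is printed, and the genes at ranks 13, 14, 48, 60, 101 and 151 were chosen after their values were seen. On simulated data for ΔCT line 2, 200 changed genes were placed among 36612 in 10 draws. There 41.9% of log2 changes of 1 and 87.1% of changes of 2 were recovered, with a mean of 5.5 false calls. In the measured data the main fit called only 4 of 36612 genes in this line, 3 of them among the 140. The simulated shares therefore describe the draws and do not give the power of that fit. R 4.3.3, limma 3.58.1, statmod and Python 3.11.15 were used.

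Alternatives were a pseudocount of 0.1, no filter, median-ratio scaling, all 28 libraries, only the compared groups, replicate blocks, leaving out each library, and other forms of the ranking rule. A filter on mock libraries was added after the data were seen.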

Additional observations from a re-analysis of the deposited data

How the results depend on the processing

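Of 242 medians under other settings than left-out libraries, 233 moved by less than the spread between replicates. Of 242 counts of called genes 227 stayed within 1.5 times. These tallies say little about stability. A replicate block leaves each median unchanged in these balanced groups. For sobir1/sobir1-like the spread between replicates was 0.54, above the median of 0.40. In most contrasts the count was 0 in the main fit, and a 0 that stayed 0 was scored as unchanged. For ΔCT line 2 the count of 3 became 1 with a pseudocount of 0.1, 10 with all 28 libraries, 59 with only the compared groups, 0 with a replicate block within genotype, and 1 with a pseudocount of 0.1 in the ranking or with the highest 100 genes. Its median of 0.88 became 1.20 with a pseudocount of 0.1, 1.06 for the highest 100 genes and 0.62 for the highest 300. The construct mean median of 0.58 became 0.80 with a pseudocount of 0.1 and 0.78 for the highest 100 genes. The median of ΔCT line 2 minus rxeg1 became 1.03 with a pseudocount of 0.1 and 0.52 for the highest 300 genes, and the mock median of ΔCT line 2 against rxeg1 became -0.45 and -0.27. Counts of 0 became 1 for sobir1/sobir1-like with only the compared groups, 1 for the Δ90-95/Q786AK791A line with median-ratio scaling, 1 for the knockout mean with all 28 libraries, and 1 and 2 for the mock differences of ΔCT line 1 and the Δ90-95/Q786AK791A line from rxeg1 with the highest 300 genes. In these fits 0.0111% (sobir1/sobir1-like), 0.00546% (the Δ90-95/Q786AK791A line) and 0.00272% (the knockout mean) of all tested genes were called higher. The cause was not tested.

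With 1 library left out, the remaining library of a group was given the spread of the rest. Shares of all tested genes called are not given for these fits. Counts then ran from 27 to 59 for the construct mean, from 0 to 3 for ΔCT line 2, from 0 to 1 for the Δ90-95/Δ786-792 line and from 0 to 3 for the mock level of ΔCT line 1, and were 0 in all other contrasts. These ranges include the rule without 1 wild-type library, which kept 126 to 137 of the 150 genes. Medians ran from 0.20 to 0.30 in rxeg1, 0.13 to 0.56 for sobir1/sobir1-like, 0.32 to 0.71 for ΔCT line 1, 0.80 to 0.97 for ΔCT line 2, 0.57 to 0.88 for the Δ90-95/Q786AK791A line and 0.12 to 0.59 for the Δ90-95/Δ786-792 line. They ran from 0.53 to 0.66 for the construct mean, 0.17 to 0.37 for the knockout mean and 0.27 to 0.46 for their difference. Against the response of rxeg1 they ran from 0.13 to 0.51, 0.70 to 0.89, 0.38 to 0.72 and -0.11 to 0.45 for ΔCT line 1, ΔCT line 2, the Δ90-95/Q786AK791A line and the Δ90-95/Δ786-792 line, and from -0.29 to -0.07 between the lines with a change at residues 90 to 95 and the ΔCT lines. Mock medians against rxeg1 ran from -0.18 to 0.32 in sobir1/sobir1-like, -0.62 to -0.18 for ΔCT line 1, -0.37 to -0.22 for ΔCT line 2, -0.46 to -0.10 for the Δ90-95/Q786AK791A line and -0.18 to -0.02 for the Δ90-95/Δ786-792 line.

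The replicate numbers did not pair the libraries in every genotype: the deviations of XEG1 and mock libraries with 1 number correlated across genes at 0.73 in rxeg1, 0.35 in sobir1/sobir1-like, -0.016 for ΔCT line 1, -0.0034 for ΔCT line 2, 0.50 for the Δ90-95/Q786AK791A line, 0.54 for the Δ90-95/Δ786-792 line and 0.17 for wild type. A replicate block common to all genotypes gave 5 called genes in the Δ90-95/Q786AK791A line, where it called 0.041% of all tested genes higher. It gave 1 for the knockout mean, against 0.00546%, and 61 for the construct mean, against 1%. For the mock level of the Δ90-95/Q786AK791A line against rxeg1 it called 2 of the 140 genes lower. There it called 564 of all 36612 tested genes lower, a similar share. A replicate block within genotype gave 4 called genes in the Δ90-95/Q786AK791A line, against 0.0246% of all tested genes, and 0 for ΔCT line 2. For the construct mean it gave 65, against 1.5%.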
